A study of Mus musculus with 7 samples.

Results

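The 7 genes described here are core parts of the Hedgehog pathway: Shh, Ptch1, Smo, Gli1, Gli2, Gli3 and Hhip. They were taken by symbol, on a list drawn up with earlier results of these data known, and each symbol matched 1 of the 32285 mouse gene IDs counted. Their levels were followed across 7 single-cell RNA libraries of neural crest lineage cells from mouse embryos, by stage, genotype and cell class.

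Hedgehog ligands, of which Sonic hedgehog (Shh) is the one made by notochord, floor plate and pharyngeal endoderm, bind the receptor Patched (Ptch1). Free Patched holds the transducer Smoothened (Smo) inactive, and ligand binding lifts this block, so that the transcription factors Gli2 and Gli3 shift from repressor to activator forms. Ptch1, Gli1 and Hhip, a membrane protein that sequesters the ligand, are themselves transcribed in responding cells, and their RNA is commonly read as a sign of pathway activity. In the pharyngeal arches, neural crest mesenchyme is known to receive the ligand from the adjacent epithelium.

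The embryos were on a mixed Swiss-Webster background and carried Wnt1-Cre/+ and the ROSA-EGFPf/+ reporter, and GFP+ cells were sorted. Wnt1-Cre is active in the dorsal neural tube and the neural crest, so the sort does not target endoderm or mesoderm. The E8.5 library also held neural cells with ventral genes, described below. Control embryos had no Tbx1 allele listed and gave 1 library at E8.5, 1 at E9.5 and 2 at E10.5. The other libraries, 1 at E9.5 and 2 at E10.5, are titled as Tbx1 null, and their genotype entry reads Wnt1-Cre/+;Tbx1+/-;ROSA-EGFPf/+, whereas the study describes them as homozygous; they are called null libraries here, after their titles. Each library was a pool of embryos. The dissected region also differed. It was the rostral part of the embryo with the heart at E8.5. At E9.5 it was the pharyngeal region with arch 1, the heart and neural tube. At E10.5 it was the arches below arch 1 with the heart and neural tube. Stage can therefore not be told apart from dissection, and a stage with 1 library a group allows no test.

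The libraries held 140264662 to 234844769 UMIs (unique molecules counted), and 5587 to 9557 cells per library were kept, 53539 in all, with a median of 14857 to 22882 UMIs per cell. Pairs of libraries shared 0 to 44 cell barcodes. Cells with at least 2 UMIs of Twist1, Prrx1 and Prrx2 together were taken as mesenchymal (30529 cells). They were split into cells with a Foxf1 UMI (3052), then a Hoxa3, Hoxb3 or Hoxd3 UMI (Hox 3 cells, 8240), then a Hoxa2 UMI (Hoxa2 cells, 6323), and the remaining Hox-negative cells (12914). Of the others, 3688 were Sox10 cells, 8290 neural progenitors and 8707 neurons. The mesenchymal name did not hold equally at all stages: 60.1% of mesenchymal cells at E8.5 also had at least 2 UMIs of Sox10, a gene of early migrating crest and glia, against 0.317 to 13.5% in the later control libraries. Tbx1, the targeted gene, was at 5.19 and 3.80 CPM (counts per 1000000 UMIs) in the E10.5 control and at 2.97 and 2.67 CPM in the E10.5 null libraries, and at 0.709 CPM in the E9.5 control and 0.651 CPM in the E9.5 null library. The deleted part of the gene is not given in the sources used here, so these 3' counts do not check the labels.

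In the mm10 genome, Shh (ENSMUSG00000002633) lies at chr5:28456815-28467256 on the minus strand and Ptch1 (ENSMUSG00000021466) at chr13:63508328-63573598 on the minus strand. Smo (ENSMUSG00000001761) lies at chr6:29735503-29761365 on the plus strand and Hhip (ENSMUSG00000064325) at chr8:79965851-80058006 on the minus strand. Gli1 (ENSMUSG00000025407) lies at chr10:127329882-127341974 on the minus strand, Gli2 (ENSMUSG00000048402) at chr1:118834132-119053619 on the minus strand and Gli3 (ENSMUSG00000021318) at chr13:15463235-15730026 on the plus strand. The 250 bases before the RefSeq start (GRCm38.p6, minus strand) are shown for the pair whose RNA moved most between mesenchymal classes, Ptch1 at chr13:63565736-63565985, inside the Ptch1 gene and outside its annotated exons, and Hhip at chr8:80058009-80058258, just before its first exon.
Ptch1: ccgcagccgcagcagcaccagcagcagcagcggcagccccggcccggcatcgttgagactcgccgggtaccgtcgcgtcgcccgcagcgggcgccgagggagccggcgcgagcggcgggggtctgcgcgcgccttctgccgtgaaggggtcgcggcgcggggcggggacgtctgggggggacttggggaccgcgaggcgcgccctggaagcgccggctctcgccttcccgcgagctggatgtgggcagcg
Hhip: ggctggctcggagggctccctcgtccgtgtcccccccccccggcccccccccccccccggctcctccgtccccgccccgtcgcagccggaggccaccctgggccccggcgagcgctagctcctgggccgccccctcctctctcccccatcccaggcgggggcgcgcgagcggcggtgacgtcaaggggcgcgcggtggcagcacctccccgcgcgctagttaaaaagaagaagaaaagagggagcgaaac
Both windows were rich in G and C, at 78.4% for Ptch1 and 76.0% for Hhip, against a median of 52.7% over the 32851 start-site windows of 300 bases (250 before to 50 after the start). The consensus Gli site GACCACCCA (reverse complement TGGGTGGTC), searched on both strands, was in 83 of those windows (0.253%). It was in 0 of the 5 member windows that were in the RefSeq table, those of Ptch1, Smo, Gli2, Gli3 and Hhip, which says only that these letters are not in these windows.

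Most UMIs of Shh, the ligand, came from the E8.5 library, and there from neural cells with Foxa2. The E8.5 control library held 436 Shh UMIs in 134 cells, and the E9.5 control and null libraries held 19 and 3. The E10.5 control libraries held 21 and 1, and the E10.5 null libraries held 16 and 6. Of the 436 UMIs at E8.5, 334 (76.6%, 95% Clopper-Pearson interval 72.3 to 80.5%) were in the 229 neural cells with a UMI of Foxa2, a transcription factor of floor plate and endoderm, out of 1866 neural cells. Another 39 were in neural cells without Foxa2, 17 in mesenchymal cells, 1 in a Sox10 cell and 45 in unassigned cells, of which 38 were in unassigned cells that had a Foxa2 UMI. With cells thinned to 5000 UMIs and classes called again, which left 50 neural Foxa2 cells, the share was 17.5%. Of the 27 cells with at least 5 Shh UMIs, 22 were neural Foxa2 cells.

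Mesenchymal cells gave 1 Shh UMI in each E9.5 library, 0 in both E10.5 control libraries and in E10.5 null replicate 1, and 4 in null replicate 2. The counts of 0 allow at most 0.0398, 0.0264 and 0.0373 CPM (3 UMIs over the class). Shh was below the filter on low counts in every test across genes, so 6 of the 7 members were tested. Because Foxa2 neural cells numbered only 1 to 11 in each later library, no Shh level is given for them there. These intervals and floors cover counting error only.

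The same neural Foxa2 cells at E8.5 carried more of the Hedgehog-responsive members and less Gli3. Shh stood at 72.0 CPM in them and at 1.17 CPM in the other neural cells, a ratio of 61.7 (95% counting interval 44.2 to 88.3). Ptch1, the receptor, was at 136.6 against 17.5 CPM, a ratio of 7.82 (6.97 to 8.76). Gli1, the factor that acts only as an activator, was at 9.91 against 2.24 CPM, a ratio of 4.42 (2.99 to 6.46). Hhip gave only 7 UMIs in each set, for a ratio of 7.20 (2.15 to 24.1). Gli3, the main repressor in the dorsal neural tube, went the other way, with 7.32 against 33.5 CPM and a ratio of 0.219 (0.151 to 0.308), as did Gli2 with 3.45 against 6.22 CPM and a ratio of 0.554 (0.311 to 0.921). Smo differed least, with 45.0 against 37.0 CPM and a ratio of 1.22 (1.05 to 1.41). This is 1 library, so the intervals carry no replicate error and no test was made.

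Of the lists for the neural tube axis, Foxa2 aside, 4 of 4 ventral and 2 of 2 floor plate genes were higher in neural Foxa2 cells of this 1 library and 5 of 6 dorsal genes were lower, with no test. Foxa1, another floor plate factor, was at 53.6 CPM in neural Foxa2 cells and 1.53 CPM in the others, and Ntn1 at 15.1 against 7.57 CPM. Nkx2-9, a ventral progenitor gene, was at 316.5 against 12.8 CPM, Nkx6-1 at 82.5 against 12.0 CPM, Nkx2-2 at 14.0 against 0.569 CPM and Olig2 at 10.6 against 1.80 CPM. Of the dorsal genes Pax3 stood at 2.37 against 32.7 CPM, Msx1 at 2.80 against 47.4 CPM and Zic1 at 3.45 against 21.4 CPM, and Pax7 was not counted in Foxa2 cells against 7.09 CPM. Wnt1, whose promoter drives the Cre, was at 38.8 against 57.8 CPM, and Lmx1a was the higher in Foxa2 cells, at 4.52 against 2.51 CPM. The bars for neural cells show Shh and Ptch1 high and Gli3 low in the Foxa2 set.

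**Figure D1:**
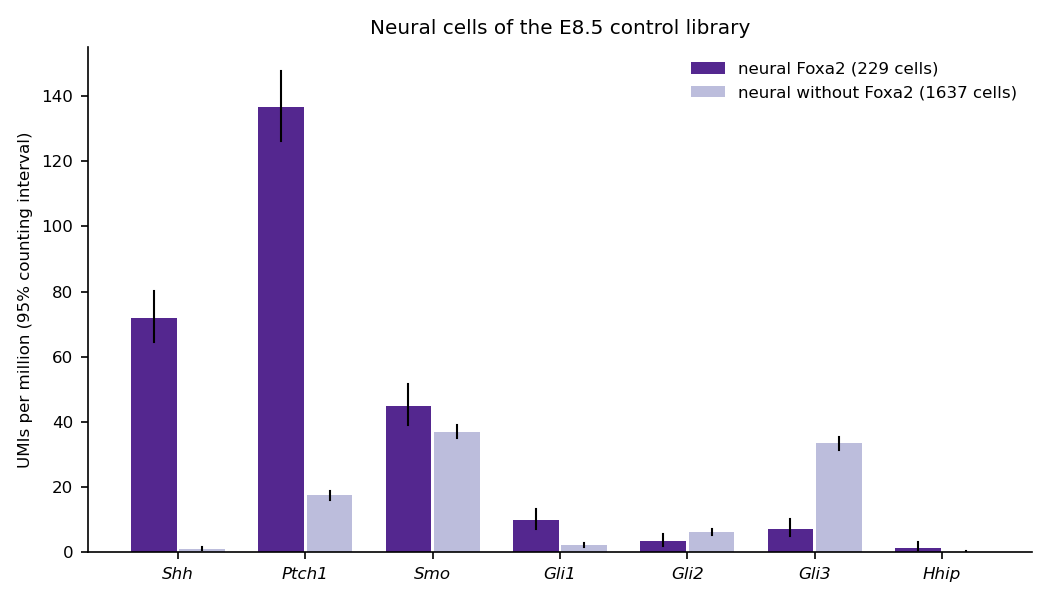
CPM of the 7 genes in neural cells of the E8.5 control library, with a Foxa2 UMI (229 cells, dark bars) and without (1637 cells, pale bars), and lines for the 95% counting interval. Shh reached 72.0 CPM and Ptch1 136.6 CPM in the Foxa2 set, where Gli3 was at 7.32 CPM.

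In mesenchymal cells Ptch1, Gli1 and Hhip were lowest at E8.5 and highest at E10.5. Ptch1 was at 7.11 CPM at E8.5 and 23.4 CPM at E9.5 in control libraries, at 28.2 CPM in the E9.5 null library, at 68.3 and 73.3 CPM in E10.5 controls and at 37.7 and 54.6 CPM in E10.5 null libraries. The E10.5 control mean (70.8 ± 3.58 CPM, SD, n = 2) was 3.03 times the E9.5 control value. Gli1 went from 0.393 to 1.43 CPM and then to 7.17 and 8.54 CPM in controls, and Hhip from 0.217 to 1.40 CPM and then to 4.87 and 5.58 CPM. Every E10.5 library was above both E9.5 libraries for these 3 genes. Foxf1 cells were 282 of 5329 mesenchymal cells at E9.5 and 538 of 3304 and 804 of 6617 at E10.5 in controls. In null libraries they were 545 of 7076, then 539 of 3198 and 336 of 2232. Without them the E10.5 to E9.5 ratio of Ptch1 was 2.29 in controls and 0.978 in null libraries. For Gli1 it was 5.22 and 1.61, and for Hhip 2.33 and 1.42. In null Hox 3 cells it was 0.924 for Ptch1, 0.826 for Gli1 and 1.01 for Hhip. The part of class mix in the rise was not tested.

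Smo and the other Gli factors also stood higher at the later stages. Smo was at 32.7 CPM at E8.5, at 49.2 CPM in control and 58.9 CPM in null cells at E9.5, and at 87.3, 76.6, 91.6 and 78.5 CPM at E10.5 (controls first). Gli2, an activator, was at 1.67 CPM at E8.5, 3.93 and 3.94 CPM at E9.5, 11.6 and 11.7 CPM in E10.5 controls and 7.99 and 9.43 CPM in E10.5 null libraries. Gli3 was at 19.2 CPM at E8.5, 23.5 CPM in control and 29.8 CPM in null cells at E9.5, 45.9 and 48.4 CPM in E10.5 controls and 35.9 and 44.4 CPM in E10.5 null libraries. The stages differed in dissection and embryo pool as well. The kit was version 2 at E8.5, version 3 for null E9.5 and null E10.5 replicate 1, and version 3.1 for the others. The part of dissection, pool and kit in the stage differences was not tested. The panels by class show that Ptch1 in neural progenitors did not follow this order of stages. It was at 28.0 CPM at E8.5, 16.6 and 16.3 CPM at E9.5 and 11.6 to 22.1 CPM at E10.5. Neural cells with Foxa2 were 229 of 1866 at E8.5 and 10 of 1750 in the E9.5 control. In control neural cells without Foxa2, neurons included, the E9.5 level of Ptch1 was 0.917 times that at E8.5. The E10.5 mean there was 1.08 times the E9.5 level. The part of Foxa2 cells in the progenitor values was not tested. Smo, Gli2 and Gli3 stood higher at each later stage in control progenitors, with no test and 1 library each at E8.5 and E9.5. Their E9.5 levels were 1.22, 1.15 and 1.54 times those at E8.5. Their E10.5 means were 1.64, 1.18 and 1.44 times the E9.5 levels. In control neural cells without Foxa2, neurons included, these E10.5 to E9.5 ratios were 1.28, 0.812 and 0.974.

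**Figure D2:**
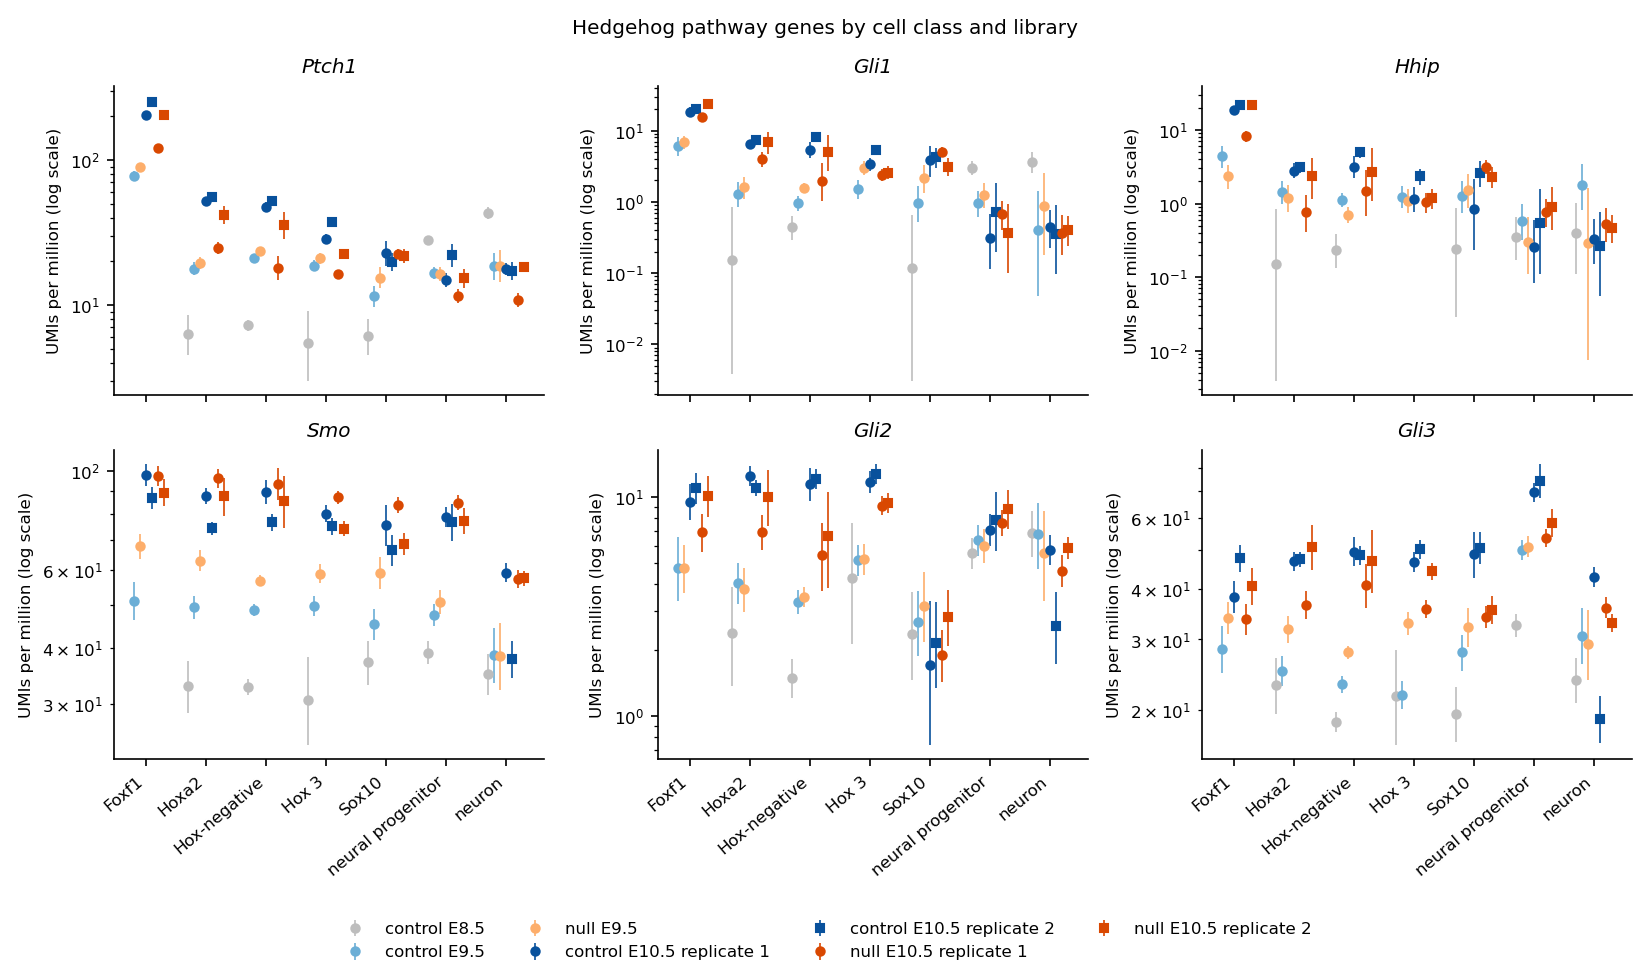
CPM (log scales) of 6 pathway genes in 7 disjoint cell classes, 1 point for each library (colour for stage and group, shape for replicate) with its 95% counting interval; values of 0, and classes with too few cells, are not drawn. Foxf1 mesenchymal cells have the highest Ptch1, Gli1 and Hhip in each E9.5 and E10.5 library, whereas Smo and Gli3 differ little between mesenchymal classes.

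Within the mesenchyme, the cells with Foxf1, a forkhead gene known to respond to Hedgehog in arch and gut mesenchyme, held the highest levels of Ptch1, Gli1 and Hhip. Ptch1 in Foxf1 cells was at 77.6 CPM (control) and 90.0 CPM (null) at E9.5, at 204.7 and 250.7 CPM in E10.5 controls and at 121.8 and 203.5 CPM in E10.5 null libraries. In the other mesenchymal cells it was at 20.03 and 22.4 CPM at E9.5, 42.1 and 49.5 CPM in E10.5 controls and 18.6 and 25.2 CPM in E10.5 null libraries. The lowest Foxf1 value at E10.5 was above the highest value of the other cells. The Foxf1 level was 3.87 and 4.02 times the other at E9.5 (control, null), and 4.87 and 5.07 times in E10.5 controls and 6.56 and 8.06 times in E10.5 null libraries. At E8.5 only 8 cells were Foxf1 cells, and no level is described for them.

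Gli1 in Foxf1 cells at E10.5 was at 18.5 and 20.2 CPM in controls and 15.4 and 23.4 CPM in null libraries, against 4.99, 6.98, 2.76 and 3.16 CPM in the other mesenchymal cells in the same order. Hhip was at 18.7, 21.6, 8.26 and 22.2 CPM against 2.21, 3.43, 1.01 and 1.39 CPM. For both genes every Foxf1 value lay above every other value. With each cell thinned to 5000 UMIs, 59.9 and 62.3% of control and 36.4 and 57.0% of null Foxf1 cells had a Ptch1 UMI at E10.5, against 16.6, 19.3, 7.59 and 10.6% of the other mesenchymal cells. Neurons, the class used as a low reference, gave 5.09 to 8.56% at that stage, so the null value of 7.59% was not above it.

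The test of this contrast used both classes of each of the 4 E10.5 libraries, with the library as a block, and a gene was called at an adjusted p under 0.05. It called 4 of the 6 members tested, where 19.0% of the 14913 genes tested were called. Ptch1 was higher by 2.58 on the log2 scale (SE 0.13, edgeR adjusted p = 2.6e-05), Hhip by 3.14 (SE 0.21, edgeR adjusted p = 9.6e-05) and Gli1 by 2.16 (SE 0.22, edgeR adjusted p = 0.000542), and each of these was called in 13 of 13 alternative settings (other tools, filters, thresholds and left-out libraries). Smo was higher by 0.19 (SE 0.05, edgeR adjusted p = 0.0239), and was called in 10 of 13 alternatives. Its call was lost without control replicate 1 (0.17, edgeR adjusted p = 0.0787), with thinned cells (0.23, edgeR adjusted p = 0.0998) and with no block (0.19, edgeR adjusted p = 0.785). Gli2 (log2 difference -0.15, edgeR adjusted p = 0.385) and Gli3 (-0.14, edgeR adjusted p = 0.135) did not pass.

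The other pathway genes of the lists did not move as 1 group. Of 6 listed receptors and co-receptors, 1 rose and 3 fell in Foxf1 cells, with a median log2 difference of -0.88 against 0.01 over all genes. Gpc3, a glypican that competes for the ligand, rose by 0.51. The ligand-binding co-receptors Gas1 and Cdon and the endocytic receptor Lrp2 fell by 1.93, 1.42 and 3.42. Gas1 stood at 49.0 and 46.0 CPM in control and 66.6 and 78.1 CPM in null Foxf1 cells, against 216.2 to 236.4 CPM in the other mesenchymal cells.

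Of 6 tested genes for ligands and their release, 0 rose and 2 fell, the ligand Dhh (by 3.77) and the exporter Disp1 (by 1.09). Dhh was near the floor in mesenchymal cells of every E10.5 library, as its levels given below with Sox10 cells show. The 13 intracellular transduction genes had 0 called, with a median of 0.09. Among 7 primary cilium genes, the organelle in which Smo acts, 1 rose, Kif3a by 0.24. Of 10 mesenchymal genes known to respond to Hedgehog, 8 rose and 1 fell, with a median of 1.36. That count includes Foxf1, which defined the class and is no finding. Foxl1 rose by 4.16, Foxf2 by 3.91, Foxd2 by 2.13, Foxc2 by 1.50 and Foxd1 by 1.22, Mycn fell by 0.26, and Ccnd1 was not called. Foxf2 was at 35.4, 30.5, 25.1 and 46.0 CPM in Foxf1 cells (controls first) against 2.23, 2.76, 1.48 and 2.52 CPM.

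Markers of other cell types also moved with this contrast. Of 4 endoderm or epithelium genes, 3 were tested and 2 rose (Krt8 by 0.52, Krt18 by 0.71), Cdh1 was at 0 in all 4 Foxf1 sums, and the summed level was 39.5 to 73.0 CPM in Foxf1 and 23.7 to 48.0 CPM in other mesenchymal cells. Of 4 endothelium genes, 2 were tested and Pecam1 rose by 0.85, with sums of 2.68 to 8.05 CPM against 2.02 to 5.34 CPM. Of 4 heart muscle genes, Nkx2-5 rose by 3.60 and Myh7, a muscle myosin, fell by 4.36, with sums of 5.03 to 25.0 CPM against 0.817 to 21.4 CPM. All 6 dorsal neural genes fell, with a median of -2.93 and sums of 20.7 to 95.7 CPM against 121.2 to 572.7 CPM. This list includes Msx1, which the study also describes in arch crest. Its sums, here and below, are therefore not of neural cells alone. Of 5 ventral neural target genes, 3 were tested and 2 rose, Nkx2-2 by 2.62 and Nkx6-1 by 1.97, with sums of 0.371 to 6.44 CPM against 0.0997 to 1.68 CPM. Among the checks of the class names, Foxd3 (by 2.57) and Erbb3 (by 1.87) of the Sox10 lineage and Col1a2 (by 0.42) of mesenchyme fell. So did Prrx1 (by 0.78), which is in the mesenchymal rule and is no independent check. The part of these in the Ptch1, Gli1 and Hhip values was not tested.

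**Figure D3:**
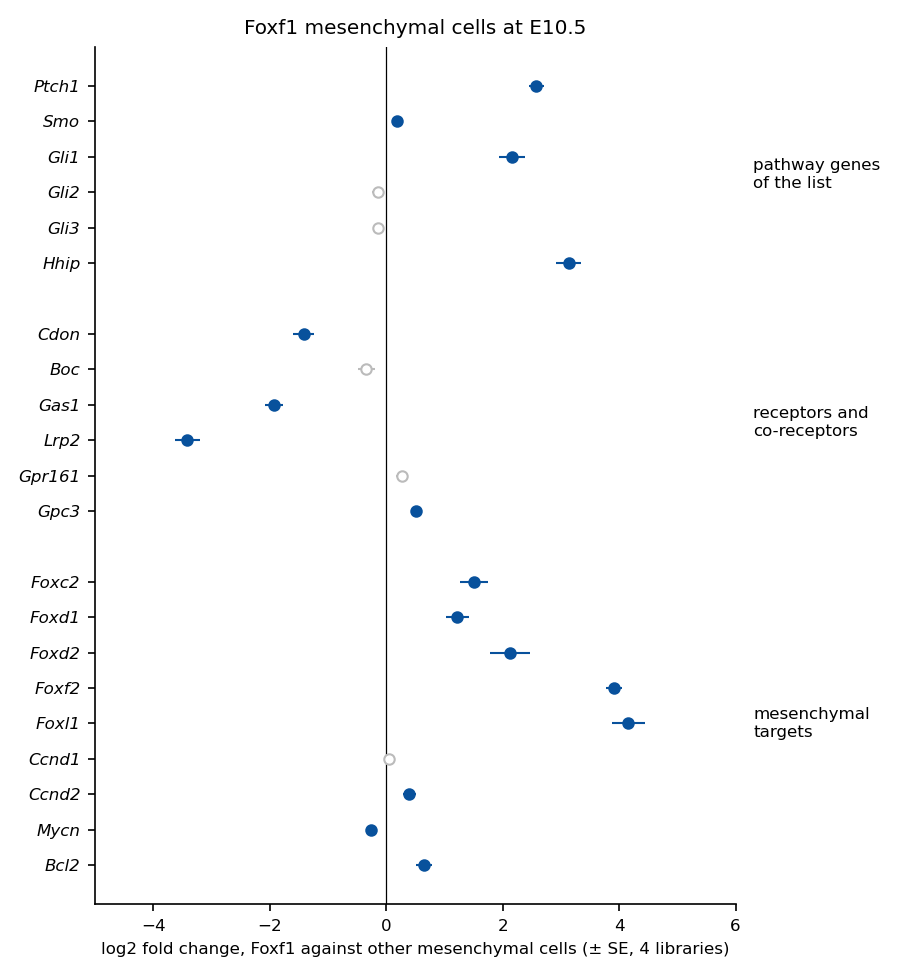
Log2 fold change at E10.5, Foxf1 against other mesenchymal cells, for the pathway genes and for the receptor and mesenchymal target lists without Foxf1 (edgeR estimate ± SE, 4 libraries, library as block); filled points passed an adjusted p of 0.05 and open points did not. Ptch1 (2.58), Gli1 (2.16) and Hhip (3.14) lie to the right, and Gas1 (-1.93), Cdon (-1.42) and Lrp2 (-3.42) to the left.

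The remaining mesenchyme was split by Hox UMIs. More caudal arches are known to express higher-numbered Hox genes, but a cell with no Hox UMI has no known arch. At E10.5, Hox-negative cells had the lowest median UMIs of the 4 mesenchymal subclasses in each library (14091.5 to 19863, against 15369 to 25861 in the others), and their number rose with cells thinned to 5000 UMIs, from 660 to 1260 and from 1892 to 3156 in the controls. Position and depth are therefore not separated in this class. Ptch1 at E10.5 was at 28.6 and 37.6 CPM in control and 16.3 and 22.4 CPM in null Hox 3 cells, against 47.5 and 51.8 CPM and 18.0 and 35.4 CPM in Hox-negative cells. Within each library the Hox 3 value was the lower, although the ranges overlapped between libraries. Of 6 members, 2 were called, where 9.43% of the 15037 genes tested were called: Ptch1 fell by 0.51 (SE 0.10, edgeR adjusted p = 0.0142) and Hhip by 1.10 (SE 0.23, edgeR adjusted p = 0.0217). Gli1 was at -0.52 (edgeR adjusted p = 0.172). Without control replicate 1 neither call remained (Ptch1 -0.42, edgeR adjusted p = 0.0903; Hhip -0.97, edgeR adjusted p = 0.128). Hhip was also not called without control replicate 2 (edgeR adjusted p = 0.0905) or null replicate 2 (edgeR adjusted p = 0.0518), and without null replicate 1 Gli1 was called too (-0.68, edgeR adjusted p = 0.0462). With thinned cells both were called (Ptch1 -0.57, edgeR adjusted p = 0.00199; Hhip -1.29, edgeR adjusted p = 0.0170). With no block for the library, neither was called (Ptch1 -0.56, edgeR adjusted p = 0.976; Hhip -1.20, edgeR adjusted p = 0.448).

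In the same contrast the forkhead target genes were lower in Hox 3 cells, Foxf2 by 1.58, Foxd1 by 1.37, Foxd2 by 0.88 and Foxc2 by 0.65, and Mycn was higher by 0.29. The co-receptors Boc and Cdon rose by 1.03 and 0.50. Markers of other cell types moved with this contrast as well. Of 6 dorsal neural genes 4 rose (Pax3, Wnt1, Pax7 and Zic1, by 1.61 to 2.16), with sums of 176.1 to 626.2 CPM in Hox 3 and 142.9 to 450.4 CPM in Hox-negative cells, as did 3 of 3 neural check genes. Of 3 tested endoderm or epithelium genes Krt8 fell by 1.33 (sums of 29.9 to 43.0 against 35.1 to 116.5 CPM), of 3 tested endothelium genes Pecam1 by 1.50, and of 4 heart muscle genes Nkx2-5 by 2.92 (sums of 0.445 to 6.01 against 0.989 to 114.2 CPM). Their part in the Ptch1 and Hhip values was not tested.

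In Hoxa2 cells Ptch1 was at 52.4 and 55.2 CPM in controls and 24.6 and 41.9 CPM in null libraries, above the Hox-negative value in each library. Only Ptch1 of the 6 members was called, where 12.5% of 13711 genes were, with a rise of 0.25 (SE 0.06, edgeR adjusted p = 0.0337). This call did not hold without any 1 of the 4 libraries (0.17 to 0.31) or with thinned cells (0.09, edgeR adjusted p = 0.762). Lrp2 fell by 2.03 and Cdon by 0.42, and Foxd2 rose by 0.73. Here Erbb3 of 2 Sox10 check genes fell (sums of 0.440 to 14.0 CPM in Hoxa2 and 7.38 to 20.2 CPM in Hox-negative cells), as did 3 of 6 dorsal neural genes (75.3 to 299.9 against 142.9 to 450.4 CPM) and 2 of 3 endoderm or epithelium genes, Krt8 and Krt18 (13.0 to 74.1 against 35.1 to 116.5 CPM). Pecam1 of 2 endothelium genes and both tested heart muscle genes, Nkx2-5 and Tnnt2, fell too. Their part in the Ptch1 value was not tested.

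Sox10 cells, the glial and early neuronal crest branch, had lower receptor and Gli2 levels than all mesenchymal cells pooled. Ptch1 was at 22.7 and 19.9 CPM in control and 22.5 and 21.8 CPM in null Sox10 cells at E10.5, below every mesenchymal library. Gli2 was at 1.70, 2.16, 1.89 and 2.84 CPM, also below every mesenchymal value. Mesenchymal cells without Foxf1 had Ptch1 at 42.1 and 49.5 CPM in controls, but at 18.6 and 25.2 CPM in null libraries. The null Sox10 values of Ptch1 lay between the null ones. Gli1 was at 3.82 and 4.22 CPM in control and 5.03 and 3.08 CPM in null Sox10 cells. Without Foxf1 cells, mesenchymal Gli1 was at 4.99 and 6.98 CPM in controls and at 2.76 and 3.16 CPM in null libraries. The test used all mesenchymal cells, and no test without Foxf1 cells was made. Of 6 members, 4 were called, where 39.3% of the 15535 genes tested were: Ptch1 fell by 1.33 (SE 0.19, edgeR adjusted p = 0.00173), Gli2 by 2.13 (SE 0.19, edgeR adjusted p = 0.00029), Gli1 by 0.69 (SE 0.21, edgeR adjusted p = 0.0383) and Smo by 0.16 (edgeR adjusted p = 0.0483). Hhip (-0.76, edgeR adjusted p = 0.165) and Gli3 (-0.04, edgeR adjusted p = 0.643) did not pass. Gli1 lost its call without control replicate 1 (-0.61), control replicate 2 (-0.55) or null replicate 2 (-0.57), and Smo without any 1 library (-0.12 to -0.19), Smo being called in 5 of 13 alternatives. Without null replicate 1 Hhip was called (-1.33, edgeR adjusted p = 0.0192).

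Dhh, the Hedgehog ligand of Schwann cell precursors, was higher in Sox10 cells. It stood at 7.85 and 4.53 CPM in control and 3.099 and 5.50 CPM in null Sox10 cells, against 0.0928 and 0.0967 CPM and 0.336 and 0.683 CPM in mesenchymal cells. Every Sox10 value was above every mesenchymal value, and the log2 difference was 4.29 (SE 0.57, edgeR adjusted p = 0.00135). Of the 6 listed receptors and co-receptors, 0 rose and 6 fell, with a median of -2.42 against -0.02 over all genes: Gpc3 by 3.88, Boc by 2.50, Lrp2 by 2.44, Cdon by 2.40, Gas1 by 1.14 and Gpr161 by 0.43.

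Neural progenitors at E10.5 carried little Gli1 and Hhip and more Gli3 than all mesenchymal cells pooled. Gli1 was at 0.311 and 0.714 CPM in control and 0.664 and 0.364 CPM in null progenitors, under every mesenchymal value. Gli3 was at 69.5 and 74.4 CPM in control and 53.6 and 58.4 CPM in null progenitors, above every mesenchymal value. In mesenchymal cells without Foxf1, mean Hhip was 2.82 CPM (control) and 1.20 CPM (null), against 0.397 and 0.840 CPM in progenitors. Mean Ptch1 was 45.8 and 21.9 CPM against 18.5 and 13.4 CPM, and mean Gli1 5.99 and 2.96 CPM against 0.512 and 0.514 CPM. The test used all mesenchymal cells, and none was made without Foxf1 cells. Of 6 members, 4 were called, where 41.3% of the 15618 genes tested were: Gli1 fell by 3.69 (SE 0.27, edgeR adjusted p = 0.000158), Hhip by 2.69 (SE 0.40, edgeR adjusted p = 0.00253) and Ptch1 by 1.90 (SE 0.10, edgeR adjusted p = 6.1e-05), and Gli3 rose by 0.52 (SE 0.05, edgeR adjusted p = 0.000666). With no block Gli3 was not called (0.52, edgeR adjusted p = 0.0677). Gli2 (-0.38, edgeR adjusted p = 0.0912) and Smo (-0.10, edgeR adjusted p = 0.223) did not pass. The co-receptors Cdon, Lrp2 and Boc rose by 1.71, 1.68 and 1.52, whereas Gpc3 fell by 1.84. Comparisons of 2 classes with mesenchymal cells share those cells and are given separately.

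Mesenchymal cells with a Gli1 UMI had a Ptch1 UMI more often than those without one. In the thinned data at E10.5, 48.2 and 45.1% of control cells with a Gli1 UMI also had a Ptch1 UMI, against 23.0 and 23.7% of cells without one. In null libraries these shares were 23.5 and 48.3% against 12.2 and 16.8%. Cells with a Gli1 UMI numbered 110, 257, 68 and 58 (controls first). Of the cells with a Ptch1 UMI, 53 of 753, 116 of 1599, 16 of 395 and 28 of 391 had a Gli1 UMI. For cells with a Hhip UMI the Ptch1 shares were 63.9, 59.8, 53.8 and 62.0% (controls first), above 12.1 to 23.6% in cells without one. For Gli3 the shares lay close together: 19.5, 22.5, 14.7 and 19.4% of cells with a Ptch1 UMI had a Gli3 UMI, against 19.7, 20.8, 16.5 and 20.1% of those without one. All mesenchymal cells were pooled here. A Foxf1 UMI was in 16.4 to 30.1% of cells with a Ptch1 UMI and in 2.71 to 5.29% of those without. The part of Foxf1 cells in these shares was not tested.

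Over 48 library and class points, which share libraries and depth, the level of Ptch1 (log2 of CPM + 1) had a Pearson correlation of 0.92 with Gli1 and 0.88 with Hhip, and Gli1 of 0.88 with Hhip. Ptch1 had 0.56 with Smo, 0.54 with Gli2, 0.30 with Gli3 and 0.01 with Shh. Among 9530 genes with a mean of at least 5 CPM, those most like Ptch1 were 9130024F11Rik (0.91), Foxd1 and Frem1 (both 0.84), and Hand1 and Slit3 (both 0.82). The genes most like Gli1 were Ptch1 (0.92), Pxdn (0.87), Pla2g4a and Cgnl1 (both 0.86) and Frem1 (0.85). The genes most like Hhip were Pla2g4a (0.90), Ptch1 and 9130024F11Rik (both 0.88), Phactr2 (0.86) and Cgnl1 (0.83).

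The study asked how loss of Tbx1, which acts in tissues next to the crest, alters crest cells. At E10.5 no pathway member passed the test between null and control in any of 8 classes. In all mesenchymal cells edgeR called 0 of 6 members, where 0.100% of the 15922 genes tested were called; 3 members had an unadjusted p under 0.05, as did 15.0% of all genes, and DESeq2 called 1 member, Ptch1, and 4.66% of the genes it gave an adjusted p. Ptch1 had means of 70.8 ± 3.58 CPM in control and 46.2 ± 12.0 CPM in null cells (SD, n = 2 each), with both null libraries under both controls. Its log2 difference was -0.82 (SE 0.22, edgeR adjusted p = 0.236), with an adjusted p of 0.0290 to 1.00 over 13 alternatives (edgeR or DESeq2), all of them below 0 in log2 difference. On the CPM scale all genes had a median log2 difference of 0.17, and Ptch1 one of -0.62. How many of all genes had both null libraries under both controls was not counted.

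The mesenchymal subclasses gave values of the same sign for Ptch1. Its log2 difference was -0.60 in Foxf1 cells (SE 0.27, edgeR adjusted p = 0.439), -0.96 in Hox 3 cells (SE 0.25, edgeR adjusted p = 0.319), -0.90 in Hoxa2 cells (SE 0.27, edgeR adjusted p = 0.200) and -1.07 in Hox-negative cells (SE 0.32, edgeR adjusted p = 0.186). Both null libraries were under both controls in each of these classes. The Ptch1 difference was 0.03 in Sox10 cells, -0.54 in neural progenitors and -0.34 in neurons, and in Sox10 cells and neurons the sign changed between settings. Mean Gli3 was 34.9 CPM in null and 49.7 CPM in control Sox10 cells, and 56.0 and 72.0 CPM in neural progenitors. Both null libraries were under both controls in these 2 classes. The share of all genes with such a separation was not counted in any class. Gli3 was below 0 in log2 difference in 13 of 13 alternatives in each, and called in 0. edgeR called 0 of 6 members in each of these 7 classes, where 0.0708, 0.0137, 0.359, 0.175, 0.0316, 0.0230 and 0.00% of genes were called (Foxf1, Hox 3, Hoxa2, Hox-negative, Sox10, neural progenitor and neuron). At an unadjusted p under 0.05 the counts were 1, 3, 3, 4, 1, 0 and 0 members, where 11.3, 12.9, 14.2, 16.4, 9.81, 7.49 and 5.38% of all genes had one. DESeq2 called 0 members, and 0.889, 1.94, 2.71, 2.50, 0.544, 0.223 and 0.174% of genes. With null replicate 2 left out, so that 1 null library is assumed to vary like the controls, Ptch1 was called in Foxf1 (-0.94), Hoxa2 (-1.22) and Hox-negative cells (-1.62), and Hhip in Foxf1 (-1.32) and Hoxa2 cells (-2.03), while 9.56% (Foxf1), 6.40% (Hoxa2) and 0.938% (Hox-negative) of all genes were called. With null replicate 1 left out instead, none of these was called: Ptch1 was at -0.27 in Foxf1, -0.56 in Hoxa2 and -0.61 in Hox-negative cells, and Hhip at 0.03 in Foxf1 and -0.54 in Hoxa2 cells.

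Other pathway genes were likewise not called in all mesenchymal cells: 0 of 7 genes for ligands and release (median log2 difference 0.70), 0 of 6 receptors (0.16), 0 of 13 intracellular (-0.01), 0 of 7 cilium (-0.40) and 0 of 10 target genes (-0.24), against -0.02 over all genes. Further quantities moved with the genotype. Mesenchymal cells with at least 2 Sox10 UMIs were 0.363 and 0.317% in controls and 4.53 and 7.44% in null libraries, and Foxd3, a gene of early crest, rose by 3.77 in mesenchymal cells. The 6 dorsal neural genes had a median log2 difference of 2.05 with 0 called, and their summed level in mesenchymal cells was 201.0 and 109.3 CPM in control and 414.2 and 494.0 CPM in null libraries. They include Msx1, which the study reports as raised in null arch crest at E9.5. Per the labels, null replicate 1 was made with another version of the kit than the other E10.5 libraries and, per the study's own listing, its somite numbers were lower. Hox-negative cells numbered 660 and 1892 in controls and 297 and 125 in null libraries. The part of these in the Ptch1 values was not tested.

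The null effect itself differed between Foxf1 and other mesenchymal cells. An interaction term called 2 of 6 members, where 1.80% of the 14913 genes tested were called: Ptch1 (0.63, SE 0.11, edgeR adjusted p = 0.0158) and Gli1 (1.05, SE 0.21, edgeR adjusted p = 0.0325), a positive value meaning a less negative null effect in Foxf1 cells. Hhip was at 0.78 (edgeR adjusted p = 0.254). Pdgfra, a mesenchyme check gene (0.55, edgeR adjusted p = 0.0237), showed a like term. So did Prrx1 (0.54, edgeR adjusted p = 0.00973), which is in the mesenchymal rule and is no independent check. Gas1 (0.77), Foxd2 (1.77), Foxc2 (1.20) and Foxd1 (1.03) had one too, and Cdon had -0.86. Of the other cell markers, Tnnt2 had 3.92 (4 of 4 heart muscle genes positive, 1 called, median 4.08), while 0 of 3 endoderm or epithelium genes were called (median -0.55). The make-up of the other mesenchymal cells differed as well. Hox 3 cells were 1048 of 2766 and 1499 of 5813 of them in controls, and 1714 of 2659 and 1564 of 1896 in null libraries. The part of these markers and of this make-up in the Ptch1 and Gli1 terms was not tested. Of 10 target genes 3 had a positive term that was called, with a median term of 0.44 against 0.03 over all genes, whereas null against control in Foxf1 cells called 0 of 10. Without control replicate 2 neither Ptch1 (0.60, edgeR adjusted p = 0.110) nor Gli1 (0.81, edgeR adjusted p = 0.395) was called, without null replicate 1 Hhip was called as well (1.19, edgeR adjusted p = 0.0003), and with thinned cells the terms were 0.15 and 0.23 and neither was called.

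At E9.5 there was 1 library a group and no test, and the labels give the null and control libraries different kit versions, so genotype and kit cannot be told apart in these ratios. A bound of 2-fold with at least 5 CPM in 1 library could be met only by Ptch1, Smo and Gli3 in every class, by Gli1 in Foxf1 cells and by Gli2 in Hox 3 cells, neural progenitors and neurons. None of these met it. In mesenchymal cells 0.740% of the 8648 genes with 5 CPM did. In the other classes 1.32% (Foxf1), 0.993% (Hox 3), 1.00% (Hoxa2), 0.748% (Hox-negative), 0.912% (Sox10), 0.693% (neural progenitor) and 2.87% (neuron) of genes did. In mesenchymal cells the log2 ratio of null to control was 0.27 for Ptch1 (95% counting interval 0.20 to 0.34), 0.26 for Smo (0.21 to 0.30), 0.66 for Gli1 (0.40 to 0.92), 0.34 for Gli3 and -0.52 for Hhip (-0.84 to -0.21). Smo was at 0.22 to 0.40 in the 4 mesenchymal subclasses. These are ratios of CPM, and the median over the 8648 genes was 0.05. On the TMM scale, which the E10.5 values use, they were 0.22 for Ptch1, 0.20 for Smo, 0.61 for Gli1, 0.29 for Gli3 and -0.58 for Hhip. Below 5 CPM, Gli1 had log2 ratios of 0.97 in Hox 3 (0.44 to 1.54) and 1.14 in Sox10 cells (0.09 to 2.28), and Hhip had -0.91 in Foxf1 (-1.65 to -0.17) and -0.70 in Hox-negative cells (-1.18 to -0.22). The log2 ratios by class show Ptch1 above 0 at E9.5 and below 0 at E10.5 in the mesenchymal classes, though the E9.5 intervals of Hoxa2 and Hox 3 cells include 0.

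**Figure D4:**
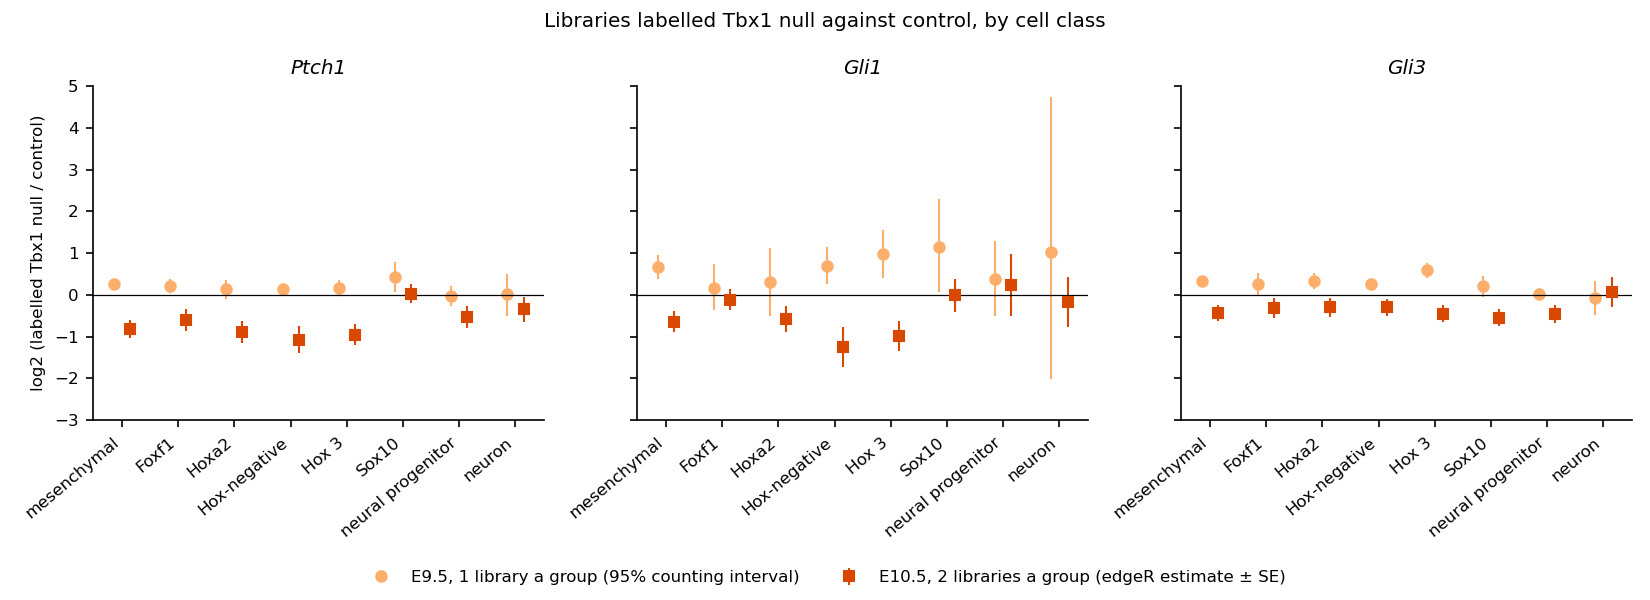
Log2 ratio of null to control libraries for Ptch1, Gli1 and Gli3 in 8 cell classes, at E9.5 (circles, 1 library a group, line for the 95% counting interval) and E10.5 (squares, 2 libraries a group, edgeR estimate ± SE); Foxf1, Hoxa2, Hox-negative and Hox 3 cells are subsets of mesenchymal cells. In mesenchymal cells Ptch1 is at 0.27 at E9.5 and at -0.82 at E10.5, where no gene shown passed the test.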

How the data were processed

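Single-cell RNA was counted in 7 libraries. The authors deposited raw UMI counts per gene and cell barcode, made with Cell Ranger (6.0.1) on mm10 per the labels. Barcodes needed 1000 detected genes or more and no more than 10% mitochondrial UMIs, and the highest Scrublet scores (0.8% per 1000 barcodes) were removed as doublets. Classes were set by UMIs of marker genes, without clustering. Sums of counts for each library and class were tested over all genes with edgeR 4.0.16 in R 4.3.3 (quasi-likelihood, TMM, filterByExpr, two-sided, Benjamini-Hochberg, called at an adjusted p under 0.05). Class contrasts carried the library as a block. DESeq2 1.42.0, other filters, doublets kept, higher thresholds and thinned cells were alternatives. CPM is UMIs per 1000000 of the class. Counting intervals are exact (Poisson, binomial) at 95%. The log2 ratios at E9.5 used a pseudocount of 0.5 UMIs. The edgeR script was tested on simulated data.

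The 7 members are named throughout, with list genes that passed in a mesenchymal comparison (the 5 largest changes per list) and the 5 genes most like Ptch1, Gli1 and Hhip. List values at E8.5, for Sox10 cells and for neural progenitors, and the marker genes beside a result, were added after their values were seen. 3 further list genes are not reported here. Members and lists were chosen with earlier results of these data known. The libraries are pools of embryos, and p-values measure the spread between these pools.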

Additional observations from a re-analysis of the deposited data

Results flagged for a closer look

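The null effect at E10.5 differed between Foxf1 and other mesenchymal cells for Ptch1 (log2 difference of effects 0.63) and Gli1 (1.05) by the edgeR interaction term. For Ptch1 the difference was called in 10 of 12 alternatives and ranged from 0.15 to 0.72, and for Gli1 in 7 of 12, from 0.23 to 1.21.

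Several members were higher in the null library than in the control at E9.5 and lower in both null libraries than in both controls at E10.5. How many of all genes did so was not counted. The log2 ratios at E9.5 were 0.27 in mesenchymal, 0.21 in Foxf1 and 0.14 in Hox-negative cells for Ptch1, 0.66 in mesenchymal, 0.97 in Hox 3 and 0.69 in Hox-negative cells for Gli1, and 0.34 in mesenchymal, 0.59 in Hox 3 and 0.26 in Hox-negative cells for Gli3. The difference between the stages was not tested, since E9.5 has 1 library a group. The stages differ in dissection, and at E9.5 the null and control libraries were made with different versions of the kit.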

How the results depend on the processing

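Of the members called, null against control in mesenchymal cells gave 0. It gave 1 with DESeq2 (713 of 15304 genes called) or with no filter on low counts (1416 of 22835). In Hoxa2 cells it gave 1 with no filter, where 854 of 20239 genes were called. In Hox-negative cells it gave 3 with no filter (911 of 19708 genes). Under the replicate block these gave 1 (Ptch1, -1.11), where 598 of 12586 genes were called. Without 1 library the Ptch1 genotype difference ran from -0.94 to -0.27 in Foxf1 and from -1.22 to -0.56 in Hoxa2 cells. In Hox-negative cells it ran from -1.62 to -0.61. Hox 3 against Hox-negative cells (2) gave 0 with no block (32 of 14133 genes called) and 0 to 3 without 1 library. With 1 library left out, 638 of 14943 to 1329 of 14828 genes were called. Hoxa2 against Hox-negative cells (1) gave 0 with DESeq2 (1078 of 13711 genes), thinned cells (306 of 11201) or no block (1 of 12891). It also gave 0 without any 1 library (304 of 13145 to 1989 of 13910). Sox10 against mesenchymal cells (4) gave 2 with no block (2548 of 14588 genes) and 2 to 4 without 1 library (4326 of 15367 to 5562 of 15699). This contrast gave 3 with no filter (5821 of 23192) or with doublets kept (6124 of 15858). With the filter of 200 genes and 5% mitochondrial UMIs it also gave 3 (5831 of 15524). Foxf1 against other mesenchymal cells (4) gave 3 with no block (253 of 14044 genes called) and 3 with thinned cells (786 of 11457). Neural progenitors against mesenchymal cells (4) gave 3 with no block (3021 of 14739). They gave 6 with thinned cells (6297 of 13037) and 5 with higher class thresholds (7183 of 15461). Leaving out mesenchymal cells that had Sox10 UMIs also gave 5 (6420 of 15465). The interaction (2) gave 1 with DESeq2 (271 of 14913 genes called), with doublets kept (292 of 15252) or with higher class thresholds (266 of 14341). With thinned cells it gave 0 (118 of 11457). Without 1 library its terms ran from 0.47 to 0.72 for Ptch1 and from 0.81 to 1.21 for Gli1. At E9.5, 1 member passed the fold in thinned Sox10 cells, a setting for which the share of all genes is not given. The Ptch1 ratio of E10.5 to E9.5 (3.03) was 2.82 under a cell filter of 200 genes and 5% mitochondrial UMIs, and 2.84 without mesenchymal cells that had Sox10 UMIs, an alternative chosen after seeing the data. The Shh share in neural Foxa2 cells (76.6%) was 72.0% with doublets kept and 17.5% with thinned cells, where classes were called again on thinned counts and fewer cells kept a Foxa2 UMI. No called result reversed. Of values that were not called, the Ptch1 genotype difference in neurons (-0.34) was 0.12 with thinned cells, that in Sox10 cells (0.03) ran from -0.085 to 0.099 without 1 library, and Gli3 in Sox10 against mesenchymal cells (-0.04) from -0.064 to 0.027.

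Replicate numbers at E10.5 did not establish pairs: deviations of same-numbered libraries correlated at 0.0421 to 0.354 over classes, with 2 pairs. Over all genes the number called moved between settings, from 4 to 1416 (16 as reported) for null against control in mesenchymal cells, from 253 to 3074 (2827) for Foxf1 cells and from 42 to 1223 (269) for the interaction. With 2 pools a group at E10.5, and 1 at E8.5 and E9.5, replicate error limits every genotype comparison, and Shh counts outside E8.5 were too few for a test.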
